A study of Mus musculus with 8 samples.

Results

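The genes described here are the RNA-binding motif (RBM) proteins, the Rbfox, Mbnl and Celf families of splicing regulators, and the cold-inducible gene Cirbp. Members were chosen by symbol alone: Rbm followed by a digit, x or s, then Rbfox, Mbnl or Celf followed by a digit, and Cirbp. The rule uses no measured value, but the members, roles and gene lists were chosen with earlier results of these data known. The rule took 59 of the 25655 gene rows of the count table, and 43 of the 59 had enough reads to be tested. RNA came from the gastrocnemius, a calf muscle, of male mice labelled WT, at day 4. The control group holds 5 samples whose treatment is 10% glycerol, and the sepsis group holds 3 samples treated with cecal slurry, gut contents that seed a polymicrobial infection. Strain and age are not among the labels, and the labels do not say that each library is a separate animal, so the p-values cover just the spread among the samples at hand, which may be technical. The title of the series concerns β-nicotinamide mononucleotide, and samples given it were not analysed here.

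Most RBM proteins carry an RNA recognition motif, the fold by which they hold short stretches of single-stranded RNA, and many work in or beside the spliceosome, which cuts introns out of pre-mRNA. In striated muscle, RBM20, RBM24, RBFOX, MBNL and CELF proteins choose the exons that go into titin, tropomyosin, troponin and ion channel transcripts, and MBNL and CELF proteins push many of these exons in opposite directions. CIRBP and RBM3 are a pair of small glycine-rich proteins that cells make in mild cold, and CIRBP released from cells is known as a danger signal in sepsis. The libraries count reads at transcript 3′ ends, so they measure how much of each regulator's mRNA was present and not which exons were used.

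Promoter sequence is shown for 4 members: Cirbp, Rbm39, Rbm17 and Mbnl2. Cirbp had the largest increase of all members, and Mbnl2 is a muscle regulator that fell. Rbm39 and Rbm17 are among the splice-site proteins that rose. The sequences are RefSeq's, in build GRCm38.p6, and each runs 5′ to 3′ up to the first annotated exon: Cirbp at chr10:80167589-80167777 on the plus strand, Rbm39 at chr2:156180239-156180488 on the minus strand, Rbm17 at chr2:11603263-11603449 on the minus strand and Mbnl2 at chr14:120275419-120275668 on the plus strand. Capitals mark, on either strand, TCCCCGCC, described for Cirbp as a mild-cold-responsive element, GGGCGG, the GC box, and CCAAT, the CCAAT box.
Cirbp: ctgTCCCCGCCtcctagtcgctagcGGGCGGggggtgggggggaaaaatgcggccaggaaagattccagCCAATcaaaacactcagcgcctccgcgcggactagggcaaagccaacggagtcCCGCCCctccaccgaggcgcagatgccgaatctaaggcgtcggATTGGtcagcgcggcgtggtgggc
Rbm39: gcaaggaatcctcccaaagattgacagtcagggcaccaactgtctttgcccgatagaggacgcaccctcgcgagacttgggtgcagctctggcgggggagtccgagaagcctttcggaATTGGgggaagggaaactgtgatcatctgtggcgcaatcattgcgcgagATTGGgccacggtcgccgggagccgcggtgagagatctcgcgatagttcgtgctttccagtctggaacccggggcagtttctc
Rbm17: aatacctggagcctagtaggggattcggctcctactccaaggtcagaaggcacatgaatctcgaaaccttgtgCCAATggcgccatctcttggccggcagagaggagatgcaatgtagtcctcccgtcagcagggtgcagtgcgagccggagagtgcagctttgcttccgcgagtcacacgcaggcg
Mbnl2: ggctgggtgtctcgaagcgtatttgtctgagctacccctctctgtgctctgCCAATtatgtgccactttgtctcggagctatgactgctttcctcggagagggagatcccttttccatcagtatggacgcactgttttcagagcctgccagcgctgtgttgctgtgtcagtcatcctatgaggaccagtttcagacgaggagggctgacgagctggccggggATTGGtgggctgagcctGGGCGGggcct

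Windows of 250 bases before the start were searched on both strands for 9 motifs in 75 promoters of 48 members and in all 32851 promoters of the table. Rbm3, Rbm20 and Rbm27 were not matched to a promoter. TCCCCGCC, whose last letters overlap the reverse complement of a GC box, was found in 4.64% of all promoters and in 5 of the 75, those of Cirbp, Rbm19, Rbms1, Rbmx2 and Rbmxl1. Of these genes, Cirbp rose in sepsis, Rbm19, Rbms1 and Rbmxl1 did not pass the test, and Rbmx2 had too few reads to be tested. GGGCGG was in 32.7% of all promoters and in 31 of the 75, and CCAAT was in 33.9% of all promoters and in 28 of the 75. Among these 28 were promoters of Cirbp, Rbm15, Rbm17, Rbm39, Rbm42 and Rbm6, which rose, and of Mbnl2 and Rbms2, which fell. The TATA letters TATAAA were in 12.4% of all promoters and in 12 of the 75, Rbm25, Rbms3 and Celf2 among them. GAANNTTC, a heat shock element core, was in 6.69% of all promoters and in 4 of the 75, those of Celf2, Celf5, Rbfox1 and Rbm45. TGACGTCA, the cyclic AMP response element, was in 1.55% and in 4 of the 75, and CACGTG, an E-box, was in 6.02% and in 6 of the 75. The core of a MEF2 site (CTA, any 4 bases, TAG) and an NRF1 site (AT between GCGC and GCGC) were in 3.2% and 0.78% of all promoters and in 0 of the 75. These matches describe letters in a window and say nothing of whether a factor binds there.

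Total counts ran from 3086277 to 4016329 per library. Mitochondrial transcripts took 21.7 to 26.7% of counts in controls and 12.6 to 16.9% in sepsis. The factors that edgeR uses to balance composition (TMM) ran from 0.887 to 0.908 in controls and from 1.13 to 1.30 in sepsis, so the choice of scaling bears on every level below. The members together took 0.236 to 0.245% of counts in controls and 0.337 to 0.393% in sepsis. Spread within a group was wider in sepsis than among controls, with a chi-square per degree of freedom of 11.01 to 26.3 against 2.04 to 6.86. Muscle fibre transcripts (Acta1, Ckm, Mb, Ttn and 6 others) dominated every library, at a summed 187000 to 217500 CPM in controls and 95670 to 123200 in sepsis, and 9 of the 10 fell. In bulk tissue, fewer cells of a type and less RNA per cell cannot be told apart.

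In sepsis the cold-inducible pair rose, as did 6 of 14 tested spliceosome and splice-site genes, while among the regulators of muscle exons 1 rose and 2 fell. At an adjusted p under 0.05 (edgeR quasi-likelihood test, Benjamini-Hochberg over 9810 genes), 14 members rose and 4 fell. That is 32.6% higher and 9.30% lower, beside 25.2% higher and 25.2% lower over all genes tested, where 50.4% passed in either direction. The counts by role and by gene list below stand beside the same shares. The groups did not overlap for 16 members that were higher and 4 that were lower, beside 23.1% and 24.3% of all genes. Rbm47 is among the 14, and Rbm45 and Rbm47 are among the 16, though both entered the test through sepsis, where they were high. Likewise Rbms2, among the 4 in both counts of lower members, entered through the controls, where it was high. A change of at least 2-fold was passed by 5 members, Cirbp, Rbm3, Rbm20, Rbm34 and Rbms3, beside 26% of all genes. Log2 fold changes, sepsis minus control, were positive in 33 members and negative in 10, with a median of 0.35 beside 0.013 over all genes. Without the third septic library the median of the same 43 members was 0.20, and it was 0.18 over the 44 then tested. Scaling by library totals alone raised the median of all genes from 0.013 to 0.43 and the share of calls that were higher from 50.1% to 75.4%. With it 30 members were higher and 1 was lower, at a median of 0.77. All 14 members that rose, and Rbms3 of the 4 that fell, kept their call under that scaling. Without the first or the second control library, 2 members were lower in place of 4, as Mbnl2 and Rbms2 no longer passed.

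**Figure D1:**
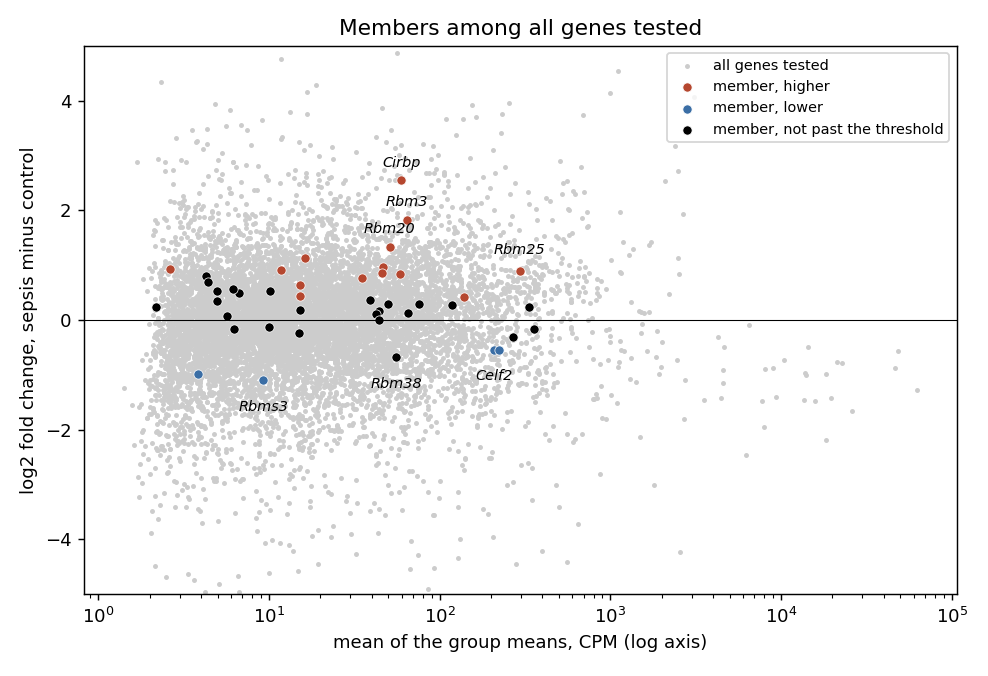
Log2 fold change (sepsis minus control) against the mean of the 2 group means in CPM on a log axis, with each gray point a gene tested and each coloured or black point a member; 37 genes lie beyond the axis limit of 5. The 14 members that rose and the 4 that fell sit among the other genes, with Cirbp at 2.55 the highest member and Rbms3 at -1.10 the lowest of the 43.

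The remaining 16 members had too few reads. Celf6, Rbm31y and Rbm44 had no read in any library. Celf3, Celf4, Celf5, Mbnl3, Rbfox3, Rbm8a2, Rbm11, Rbm12b1, Rbm41, Rbm43, Rbm46, Rbmx2 and Rbmxl2 had at most 21 reads in 1 library. Of the tested members, 36 passed the filter on low counts in the controls alone, where all 5 must reach the minimum. Rbm12, Rbm12b2, Rbm45, Rbm47, Rbms2, Rbm14 and Rbm4b did not.

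Both cold-inducible genes rose, and they showed the largest increases of all members. Cirbp, which binds and steadies transcripts under stress, stood at 22.5, 13.2, 22.0, 14.5 and 14.02 CPM (counts per library scaled to a common size, with TMM) in control libraries 1 to 5 and at 118, 70.8 and 116 in septic libraries 1 to 3. The lowest septic value was above every control, with the second septic library the lowest of its group. The means were 17.2 ± 4.60 CPM in controls and 102 ± 26.8 in sepsis (SD, n = 5 and 3), a 5.86-fold increase with a log2 fold change 2.55, SE 0.22, adjusted p = 1.83e-06 by edgeR's quasi-likelihood test. Rbm3, which supports protein synthesis in the cold, stood at 30.0, 25.7, 34.03, 31.8 and 19.8 CPM in controls and 89.6, 98.1 and 114 in sepsis. All 3 septic libraries exceeded all 5 controls, and the second library was not the lowest here. Rbm3 averaged 28.3 ± 5.65 CPM in controls and 100.4 ± 12.1 in sepsis, a 3.55-fold increase (log2 fold change 1.83, SE 0.16, adjusted p = 1.35e-06). The log2 ratio of Cirbp to Rbm3 reads within a library was -0.72 ± 0.31 in controls and -0.012 ± 0.44 in sepsis, a difference of 0.71 with an exact permutation p of 0.0536 (adjusted 0.0842 over 11 pairs).

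Heat shock genes, read beside the cold-inducible pair, were mixed: of 10 tested, 4 rose and 0 fell, with a median of 0.31 that dropped to 0.0055 without the third septic library, where 4 rose and 2 fell, and was 0.51 without the first. Hspb1, a small chaperone of muscle, averaged 662 ± 52.4 CPM in controls and 4344 ± 2968 in sepsis and rose (log2 fold change 2.71, adjusted p = 0.00159), with a wide spread between septic libraries. The chaperones Hspa4 (log2 fold change 0.77, adjusted p = 0.000188) and Hsph1 (log2 fold change 0.69, adjusted p = 0.00362) rose less.

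**Figure D2:**
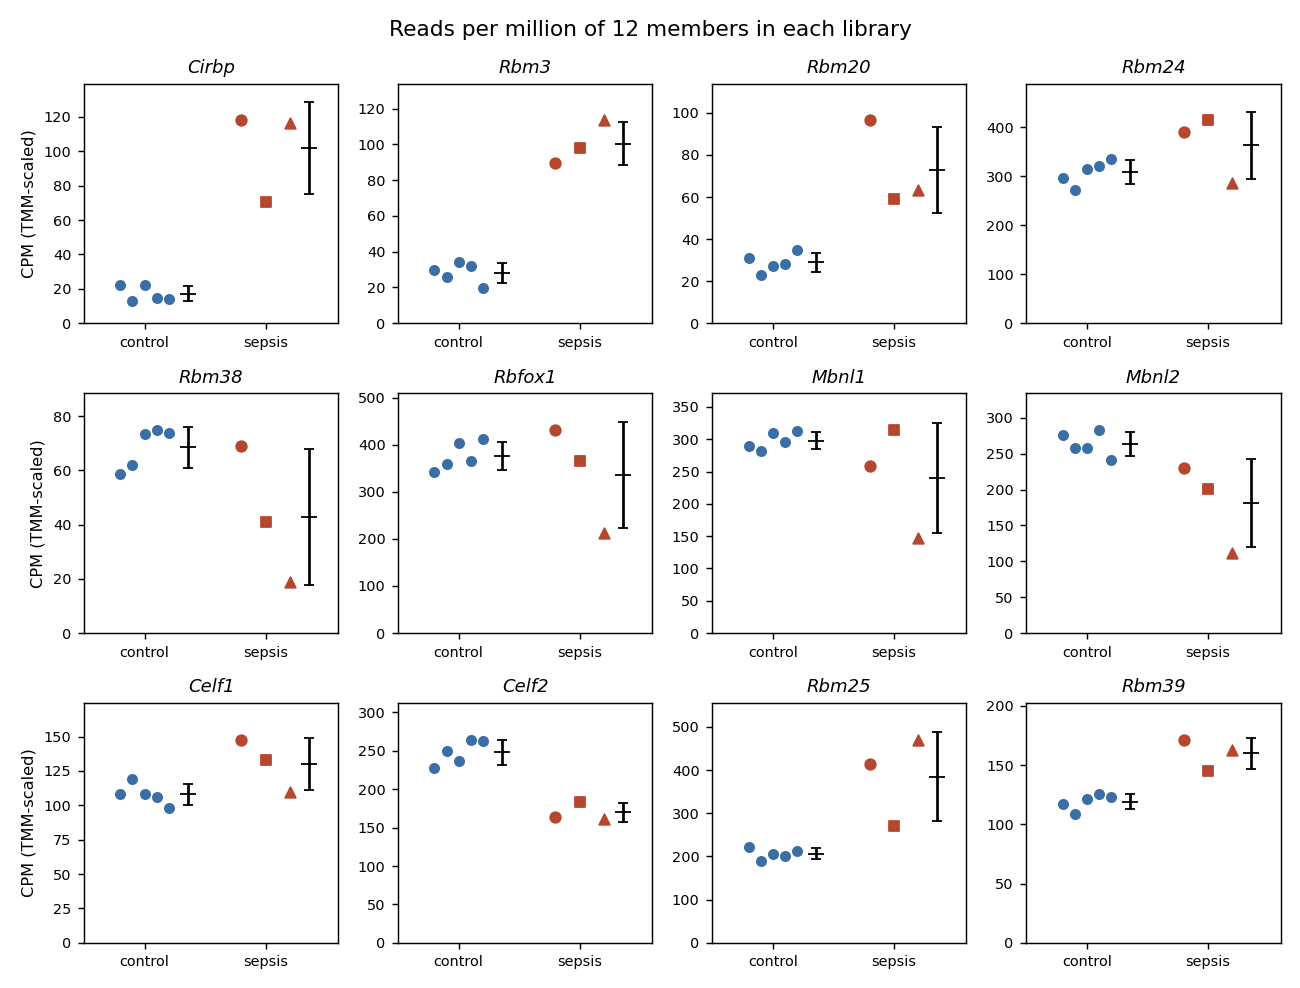
Scaled reads (CPM with TMM, axes from 0 and separate for each gene) of 12 members in each control library (blue circles) and septic library (red; circle, square and triangle for sepsis 1, 2 and 3), with bars for mean and SD. Cirbp, Rbm3, Rbm20, Rbm25 and Rbm39 have every septic library above the control range, and Celf2 and Mbnl2 have every one below it. Rbm24, Rbm38, Rbfox1, Mbnl1, Mbnl2, Celf1 and Celf2 are lowest in sepsis 3.

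The muscle splicing regulators did not move together. Of 15 rows 9 were tested, and Rbm20 rose, Celf2 and Mbnl2 fell, and 6 did not pass, with a median log2 fold change of -0.16. That is 11.1% higher and 22.2% lower, beside 25.2% higher and 25.2% lower over all genes tested. With library totals alone 4 rose (Rbm20, Rbm24, Rbfox2 and Celf1), 0 fell and the median was 0.26. Without the third septic library 3 rose, 2 fell and the median was 0.082, and without the first 1 rose, 3 fell and it was -0.37. The summed muscle fibre transcripts given above were lower in all 3 septic libraries and lowest in the second (95670 CPM), while these regulators went both ways. The part of the fibre transcripts in these values was not tested.

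Rbm20, which makes titin shorter and stiffer by leaving out exons and whose mutations cause cardiomyopathy, stood at 31.1, 22.9, 27.4, 28.2 and 34.7 CPM in controls and at 96.6, 59.0 and 63.5 in sepsis. Every septic library was above every control, and the first was well above the other 2. Rbm20 averaged 28.9 ± 4.40 CPM in controls and 73.0 ± 20.5 in sepsis (2.52-fold, log2 fold change 1.33, SE 0.18, adjusted p = 4.14e-05, edgeR). Rbm24, which promotes inclusion of muscle exons during development, stood at 297, 272, 314, 321 and 336 CPM in controls and 389.6, 414 and 285 in sepsis. The first 2 septic libraries lay above the controls and the third lay among them. Rbm24 did not pass the test (log2 fold change 0.24, SE 0.13, adjusted p = 0.141), while without the third septic library it did (0.39, adjusted p = 0.00606). With library totals alone it also passed (0.66, adjusted p = 0.000893). Rbm38, its closest relative and a p53 target that binds the untranslated parts of mRNAs, stood at 58.6, 61.8, 73.5, 74.9 and 73.6 CPM in controls and 68.9, 41.0 and 18.7 in sepsis. The first septic library sat inside the control range, and the other 2 were below it, the third by the most. Rbm38 did not pass (log2 fold change -0.68, SE 0.33, adjusted p = 0.116), and it passed without the first septic library (-1.20, adjusted p = 0.00294).

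Rbfox1, the main RBFOX gene of muscle, stood at 341, 359, 405, 366 and 411 CPM in controls and 431, 366 and 212 in sepsis. Its septic values straddled the controls, with the first library above them all, the second inside their range and the third below. Rbfox1 gave a log2 fold change of -0.16 (SE 0.19, adjusted p = 0.487), which changed sign to 0.26 with library totals and to 0.082 without the third septic library. Rbfox2, its widely expressed relative, stood at 42.8, 43.9, 40.1, 36.2 and 39.8 CPM in controls and 44.7, 42.0 and 44.8 in sepsis. The groups overlapped, and the 3 septic values were close together. The difference for Rbfox2 did not pass (log2 fold change 0.11, SE 0.12, adjusted p = 0.470), except with library totals (0.53, adjusted p = 0.00210).

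Mbnl1, the MBNL protein that mature muscle relies on and that expanded repeats sequester in myotonic dystrophy, stood at 289, 281, 309, 295 and 313 CPM in controls and 259, 314 and 148 in sepsis. The second septic library was above every control and the third was far below them. Mbnl1 did not pass (log2 fold change -0.31, SE 0.19, adjusted p = 0.199). It was lower without the second septic library (-0.55, adjusted p = 0.0222), and its sign turned to 0.12 with library totals. Mbnl2, which shares many targets with Mbnl1, stood at 277, 258, 258, 283 and 241 CPM in controls and 230.3, 201 and 112 in sepsis. All septic values were below all controls, the third by the most. Mbnl2 averaged 263 ± 16.8 CPM in controls and 181 ± 61.6 in sepsis and fell (1.45-fold lower, log2 fold change -0.54, SE 0.19, adjusted p = 0.0322). That call ended with library totals (-0.12, adjusted p = 0.627), and without control 1, 2 or 4 or septic library 2, where adjusted p ran from 0.0505 to 0.0669. Mbnl3, a form of immature muscle, had 1 read in the 5 controls together and 3 in the 3 septic libraries, too few to compare.

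Celf1, which works against MBNL on many muscle exons and also speeds mRNA decay, stood at 108, 119, 108, 106 and 98.1 CPM in controls and 148, 133 and 109.6 in sepsis. The first 2 septic libraries lay above all controls and the third among them. Celf1 did not pass (log2 fold change 0.27, SE 0.12, adjusted p = 0.0817), and it passed without the third septic library (0.38, adjusted p = 0.0112) or with library totals (0.68, adjusted p = 0.000306). Celf2, its relative in muscle, nerve and blood cells, stood at 227, 250.2, 237, 264 and 263 CPM in controls and 164, 184 and 161 in sepsis. Every septic library was below every control and the 3 lay close together. Celf2 averaged 248 ± 16.2 CPM in controls and 169.9 ± 12.2 in sepsis and fell (1.46-fold lower, log2 fold change -0.55, SE 0.10, adjusted p = 0.000740), a call that held without any 1 library and ended with library totals (-0.12, adjusted p = 0.347). Macrophage and leukocyte markers, some of which sit in cells that also express Celf2, were higher over the same libraries. Their summed level was 59.7 to 149 CPM in controls and 239 to 412 in sepsis, and 3 of 6 tested rose. T and B cell markers were at most 0.904 CPM in sum, with Cd4, Cd79a and Trbc2 among those at 0 in all libraries.

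Transcripts whose exons these regulators are known to choose mostly fell: of 30 listed muscle genes, 6 rose and 18 fell, with a median of -0.53, and with library totals 10 rose and 13 fell at -0.12. Tpm1, a tropomyosin with muscle-specific exons, averaged 30290 ± 2177 CPM in controls and 6684 ± 831 in sepsis (log2 fold change -2.18, adjusted p = 2.27e-08). Tpm2, the gene for beta-tropomyosin, averaged 5192 ± 305 CPM in controls and 1891 ± 322 in sepsis (log2 fold change -1.46, adjusted p = 8.93e-07). Pdlim7, a Z-disc and cytoskeleton adaptor, averaged 273 ± 13.7 CPM in controls and 95.0 ± 8.13 in sepsis (log2 fold change -1.53, adjusted p = 2.31e-07). These are total levels, and the use of single exons was not measured. Over all genes tested 25.2% rose and 25.2% fell. Among 22 tested splicing regulators outside the member families, such as the PTBP family, 8 rose and 2 fell at a median of 0.32. With library totals 15 rose and 0 fell, and without the fifth control library 5 rose. Ewsr1 (log2 fold change 1.24, adjusted p = 1.90e-05) and Fubp1 (log2 fold change 1.20, adjusted p = 2.79e-05), which bind nucleic acid in transcription and splicing, rose. The 2 that fell were Khdrbs3 (log2 fold change -0.97, adjusted p = 0.00601) and Rbpms (log2 fold change -0.69, adjusted p = 0.00686), named after their values were seen.

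Among genes for spliceosome and splice-site proteins, none fell. Of 18 rows 14 were tested, 6 rose, 0 fell and 8 did not pass, at a median of 0.54. That is 42.9% higher and 0% lower, beside 25.2% higher and 25.2% lower over all genes tested. With library totals 13 rose at a median of 0.94. Without the third septic library 5 of the 15 then tested rose, at a median of 0.35. Rbm25, a U1-associated protein that steers the choice between splice sites, stood at 222, 189, 206, 202 and 213 CPM in controls and 413, 271 and 469.9 in sepsis. All septic libraries were above all controls, with the third the highest and the second the lowest. Rbm25 averaged 206 ± 12.4 CPM in controls and 385 ± 103 in sepsis (1.86-fold, log2 fold change 0.90, SE 0.15, adjusted p = 0.000244, edgeR). Rbm17, which helps define the 3′ splice site, stood at 45.3, 42.1, 43.4, 40.1 and 40.2 CPM in controls and 72.1, 65.1 and 90.4 in sepsis. The groups were apart and the order of the septic libraries was the same as for Rbm25. Rbm17 averaged 42.2 ± 2.19 CPM in controls and 75.9 ± 13.1 in sepsis (1.80-fold, log2 fold change 0.84, SE 0.13, adjusted p = 0.000132). Rbm42, a protein of the tri-snRNP, stood at 37.2, 29.8, 32.5, 38.3 and 26.8 CPM in controls and 62.2, 48.3 and 67.8 in sepsis. Again no septic library reached down to the controls. Rbm42 averaged 32.9 ± 4.88 CPM in controls and 59.5 ± 10.0 in sepsis (1.80-fold, log2 fold change 0.85, SE 0.16, adjusted p = 0.000511).

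Rbm6, which shares a genomic neighbourhood and a domain plan with Rbm5, stood at 23.6, 26.1, 27.1, 26.8 and 26.1 CPM in controls and 45.8, 33.8 and 52.5 in sepsis. The controls were tightly grouped and every septic library lay above them. Rbm6 averaged 25.9 ± 1.38 CPM in controls and 44.0 ± 9.46 in sepsis (1.70-fold, log2 fold change 0.76, SE 0.15, adjusted p = 0.00110). Rbm39, a U2AF-like coactivator and the target of degrader sulfonamides, stood at 117, 109, 121, 126 and 123 CPM in controls and 171, 145 and 163 in sepsis. There was no overlap, and the first septic library was the highest. Rbm39 averaged 119 ± 6.51 CPM in controls and 159.9 ± 13.2 in sepsis (1.34-fold, log2 fold change 0.42, SE 0.11, adjusted p = 0.00447). Rbm48, which acts in the minor spliceosome, rose by 0.44 (adjusted p = 0.0437), a call that was lost under 12 of 15 alternatives.

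The other 8 in that group did not pass. Rbm5 (0.36) and Rbm10 (-0.24), exon-skipping factors related to Rbm6, differed in sign, and Rbm10 turned to 0.18 with library totals. Rbm22, which sits at the catalytic centre of the spliceosome, gave 0.18. Rbm14, a paraspeckle protein, gave 0.54. Rbm4 gave 0.50 and its near-identical copy Rbm4b gave 0.70, with no overlap between groups for Rbm4b. The splicing factor Rbmx gave 0.53 and its retrocopy Rbmxl1 gave 0.57. How reads that match both copies were counted is not given, so the split within these copies, and within Rbm8a and Rbm8a2, is uncertain. Nor is a strand setting given, so reads from a member and from an antisense neighbour cannot be told apart. Without the second septic library Rbm5, Rbm14 and Rbmx passed as higher (adjusted p = 0.0419, 0.0499 and 0.0297), and Rbmx also passed without the third control (0.0317).

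Of 20 partners of these proteins in the core spliceosome, 12 rose and 0 fell, at a median of 0.61 (17 rose with library totals). Sf3b1, the U2 component that grips the branch site, averaged 61.8 ± 4.67 CPM in controls and 211 ± 55.6 in sepsis (log2 fold change 1.77, adjusted p = 1.00e-06). Its complex partner Sf3b2 rose less (log2 fold change 0.78, adjusted p = 0.000135). Of 10 kinases that phosphorylate splicing factors or belong to the same families, 4 rose and 2 fell at a median of 0.15. With library totals 7 rose, and without the first septic library 2 rose at a median of 0.24, as many as without the third. Clk4 rose (log2 fold change 0.81, adjusted p = 0.000848), while Srpk3, the muscle SR-protein kinase, averaged 26.4 ± 4.19 CPM in controls and 11.3 ± 5.13 in sepsis and fell (log2 fold change -1.21, adjusted p = 0.00222), as did Dyrk1b (log2 fold change -1.25, adjusted p = 0.00177).

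**Figure D3:**
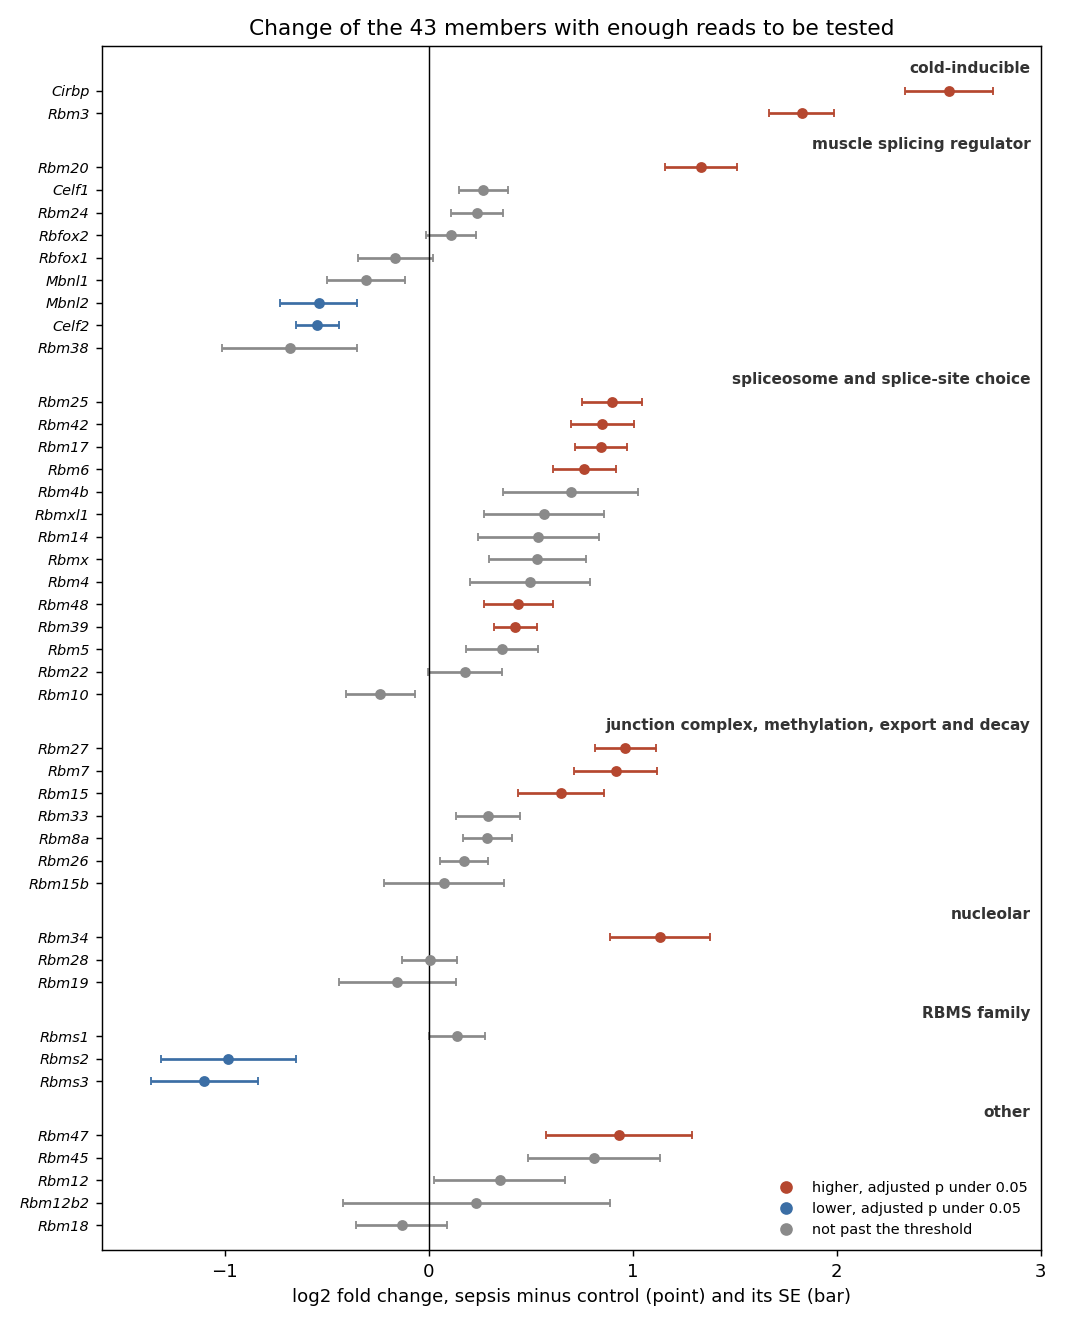
Log2 fold change, sepsis minus control (points), with its SE (bars), for the 43 tested members by role; red marks the 14 members that rose, blue the 4 that fell and gray the 25 that did not pass. Of the 14 members in the spliceosome group, 13 are right of 0 and Rbm10 is left of it, and the muscle splicing regulators lie on both sides.

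Members of the exon junction complex, of m6A methylation and of nuclear export and decay were positive in all 7 tested of 8 rows, and Rbm27, Rbm7 and Rbm15 rose, at a median of 0.29. With library totals 6 rose, and without the second septic library the median was 0.48. Rbm27, which with Rbm26 joins the nuclear decay pathway for polyadenylated RNA, stood at 28.3, 33.0, 33.4, 30.4 and 31.9 CPM in controls and 54.0, 52.3 and 77.4 in sepsis. Every septic library was above every control, the third by the most. Rbm27 averaged 31.4 ± 2.08 CPM in controls and 61.2 ± 14.02 in sepsis (1.95-fold, log2 fold change 0.96, SE 0.15, adjusted p = 0.000140, edgeR). Rbm7, the RNA-binding subunit of the NEXT complex that feeds the nuclear exosome, stood at 10.8, 6.91, 8.43, 6.51 and 7.97 CPM in controls and 14.1, 14.7 and 17.6 in sepsis. The groups did not overlap. Rbm7 averaged 8.13 ± 1.70 CPM in controls and 15.5 ± 1.86 in sepsis (1.89-fold, log2 fold change 0.92, SE 0.20, adjusted p = 0.00216). Rbm15, which brings the m6A methyltransferase to its targets, stood at 11.9, 11.3, 17.2, 9.40 and 8.92 CPM in controls and 20.2, 18.5 and 16.9 in sepsis. The third control lay inside the septic range. Rbm15 averaged 11.8 ± 3.28 CPM in controls and 18.5 ± 1.66 in sepsis (1.57-fold, log2 fold change 0.65, SE 0.21, adjusted p = 0.0215), and did not pass without the fifth control (adjusted p = 0.0536) or the first septic library (0.0681).

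Rbm8a, the Y14 core subunit of the exon junction complex, stood at 56.9, 77.2, 68.7, 68.0 and 70.1 CPM in controls and 84.6, 84.5 and 80.6 in sepsis. All septic libraries lay above all controls by a small margin. Rbm8a averaged 68.2 ± 7.29 CPM in controls and 83.2 ± 2.27 in sepsis and did not pass (log2 fold change 0.29, SE 0.12, adjusted p = 0.0599), while with library totals it did (0.71, adjusted p = 0.000270). Rbm15b (0.074), Rbm26 (0.17) and Rbm33 (0.29), an adaptor of the demethylase ALKBH5, did not pass, and Rbm33 did without the second septic library (0.48, adjusted p = 0.00852). Of 18 exon junction partners of Rbm8a, 9 rose and 0 fell at a median of 0.48. With library totals 13 rose, and without the third septic library 6 rose at a median of 0.31. Those with the smallest p were the core helicase Eif4a3 (log2 fold change 1.02, adjusted p = 0.000329), Srrm1 (log2 fold change 0.96, adjusted p = 0.000323) and the decay kinase Smg1 (log2 fold change 1.09, adjusted p = 0.000599). Of 14 genes of the m6A machinery 6 rose and 2 fell at a median of 0.29, and with library totals 8 rose and 0 fell. Without the second control library the median was 0.13 over the 13 then tested, and without the first septic library 4 rose at a median of 0.17. The readers Ythdc1 (log2 fold change 0.96, adjusted p = 0.000212) and Ythdf1 (log2 fold change 0.81, adjusted p = 0.000177) rose, and Alkbh5 (log2 fold change -0.73, adjusted p = 0.000453) fell, though not with library totals (-0.31, adjusted p = 0.0545). Of 16 genes around the nuclear exosome 5 rose and 3 fell at a median of 0.38, while 50.4% of all genes tested passed. With library totals 11 rose and 0 fell, and without the first septic library 1 rose and 3 fell. Without control 2, control 5 or septic library 3, 1 fell and 3, 4 or 6 rose in that order. Named by the smallest p were the exosome subunit Exosc5 (log2 fold change 0.63, adjusted p = 0.00997), Zfc3h1 (log2 fold change 0.56, adjusted p = 0.0102), a scaffold of the pathway that Rbm26 and Rbm27 join, and the exosome cofactor C1d (log2 fold change -0.65, adjusted p = 0.00987). Zfc3h1 did not pass without the first septic library (adjusted p = 0.0618), and C1d did not pass with library totals.

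In the nucleolar group, which makes ribosomal RNA, Rbm34 rose and Rbm19 (-0.16) and Rbm28 (0.0039) did not pass. Rbm34 stood at 8.61, 8.79, 14.8, 5.79 and 12.4 CPM in controls and 21.0, 19.3 and 26.5 in sepsis. No septic library overlapped the controls, and the third was the highest. Rbm34 averaged 10.1 ± 3.52 CPM in controls and 22.3 ± 3.74 in sepsis (2.20-fold, log2 fold change 1.14, SE 0.25, adjusted p = 0.00179, edgeR). Of 5 tested members with other roles, Rbm47 passed and Rbm12, Rbm12b2, Rbm18 and Rbm45 did not. Rbm47, a cofactor of cytidine-to-uridine mRNA editing, stood at 1.39, 2.83, 2.11, 1.45 and 1.28 CPM in controls and 3.46, 3.57 and 3.43 in sepsis. These were 29 reads over all controls and 45 over the septic libraries, and Rbm47 passed the filter on low counts only through sepsis, where it was high. Its increase of 0.93 (SE 0.36, adjusted p = 0.0442) was lost under 12 of 15 alternatives. The leukocyte markers and the summed neutrophil markers were higher in the same libraries. The neutrophil sum was 61.7 to 141 CPM in sepsis against 0.301 to 1.27 in controls. It was mostly S100a8 (mean 61.9 CPM in sepsis) and S100a9 (38.8). These and Retnlg were the 3 of 8 neutrophil markers tested, and all 3 rose. They had 3, 2 and 0 reads over all controls and entered the test only through sepsis, so their rise was set by the filter. The part of leukocytes and neutrophils in Rbm47 was not tested. Rbm45, a stress granule protein, had 15, 7, 7, 7 and 14 reads in the controls and 26, 23 and 21 in sepsis, so it too entered the test through the group where it was high. It gave 0.81 (adjusted p = 0.0524), and passed without control 1 (0.0402) or control 5 (0.0348). Rbm12 gave 0.35, Rbm12b2 0.23 and Rbm18 -0.13, a value that turned to 0.29 with library totals.

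In the RBMS family, which binds single-stranded nucleic acid and mRNA, Rbms3 and Rbms2 fell and Rbms1 did not pass. Rbms3 stood at 14.7, 11.9, 11.8, 13.7 and 11.5 CPM in controls and 3.46, 5.46 and 8.68 in sepsis. Every septic library was below every control, the first by the most. Rbms3 averaged 12.7 ± 1.43 CPM in controls and 5.87 ± 2.63 in sepsis (2.14-fold lower, log2 fold change -1.10, SE 0.26, adjusted p = 0.00354, edgeR), and this call held under all 15 alternatives. Rbms2 stood at 6.11, 6.28, 3.01, 5.06 and 5.10 CPM in controls and 2.93, 1.89 and 2.97 in sepsis, with the third control just above the septic values. That control had 10 reads and the septic libraries had 11, 9 and 13, so the gap rests on the scaling. Rbms2 entered the test through the controls, where it was high. Rbms2 averaged 5.11 ± 1.30 CPM in controls and 2.60 ± 0.610 in sepsis (1.98-fold lower, log2 fold change -0.98, SE 0.33, adjusted p = 0.0244). It did not pass with library totals (-0.57, adjusted p = 0.155) or DESeq2 (adjusted p = 0.0710), or without control 1, control 2 or septic library 2, where adjusted p ran from 0.0510 to 0.0899. Rbms1 gave 0.14 (SE 0.14, adjusted p = 0.416), with 5 controls from 51.9 to 73.3 CPM and septic values of 58.8, 72.7 and 74.0. Summed markers of fibroblasts, smooth muscle and Schwann cells were lower in the same septic libraries, and endothelial markers were mixed. Of 8 fibroblast and fibro-adipogenic progenitor markers 0 rose and 7 fell, from a summed 1353 to 2880 CPM in controls to 316.5 to 490.6 in sepsis. Of 7 tested smooth muscle and pericyte markers 0 rose and 3 fell, from 279.8 to 340.6 CPM to 203 to 214. Of 6 Schwann cell markers 0 rose and 5 fell, from 86.9 to 179 CPM to 44.2 to 60.3. Of 8 endothelial markers 3 rose and 2 fell, from 207 to 249 CPM to 217 to 284. The part of these cells in the RBMS values was not tested.

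Ratios between related members within a library do not depend on how libraries are scaled, and 11 pairs were tested for a shift in either direction by exact permutation (two-sided) over the 56 splits of 5 and 3, whose smallest p is 0.0179. Each of 5 pairs reached that p (adjusted p = 0.0393 over the 11 pairs), with every septic ratio outside the range of the controls. The log2 ratio of Rbms1 to Rbms3 was 2.31, 2.31, 2.43, 2.16 and 2.16 in the controls and 4.04, 3.71 and 3.08 in the septic libraries. It averaged 2.28 ± 0.12 in controls and 3.61 ± 0.49 in sepsis, a difference of 1.33. For Rbm24 against Rbm38 the log2 ratio was 2.34, 2.14, 2.09, 2.10 and 2.19 in the controls and 2.50, 3.33 and 3.92 in the septic libraries. The difference of the means was 1.08, and the septic libraries differed from each other more than the controls did. For Celf1 against Celf2 the log2 ratio was -1.07, -1.07, -1.13, -1.31 and -1.42 in the controls and -0.16, -0.47 and -0.56 in the septic libraries, a difference of 0.81, so the balance of this pair shifted to Celf1 in all 3 septic libraries. For Rbm26 against Rbm27 it was 0.45, 0.45, 0.26, 0.51 and 0.37 in the controls and -0.23, -0.24 and -0.61 in the septic libraries, a difference of -0.77, and the ratio was positive in all 5 controls and negative in all 3 septic libraries. For Rbm5 against Rbm10 it was 1.13, 1.03, 1.08, 1.09 and 0.97 in the controls and 1.46, 1.35 and 2.03 in the septic libraries, a difference of 0.55.

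Mbnl1 against Celf1, a pair with opposing actions on muscle exons, averaged 1.46 ± 0.16 in controls and 0.83 ± 0.41 in sepsis, a difference of -0.64 with an exact p of 0.0357 (adjusted 0.0655). Mbnl1 against Mbnl2 differed by 0.22 (exact p = 0.143, adjusted 0.175), Rbfox1 against Rbfox2 by -0.33 (exact p = 0.268, adjusted 0.295), Rbm15 against Rbm15b by 0.57 (exact p = 0.107, adjusted 0.147) and Rbm4 against Rbm4b by -0.36 (exact p = 0.375, adjusted 0.375). A ratio within a library shows unequal change and not which gene changed. Leaving out 1 library raises the smallest possible p to 0.0286 or 0.0476, and adjusted p of the 5 pairs then passed only without the first control library. Their direction was the same throughout. For pairs that did not pass, 1 library moved the difference further: Rbfox1/Rbfox2 was -0.017 without the third septic library and -0.53 without the first, Mbnl1/Mbnl2 was 0.10 without the second and 0.34 without the first, and Rbm4/Rbm4b was -0.10 without the second and -0.66 without the third. Without control 2 Rbm4/Rbm4b was -0.19. Without the third septic library the difference for Rbm5 and Rbm10 was 0.34 in place of 0.55.

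**Figure D4:**
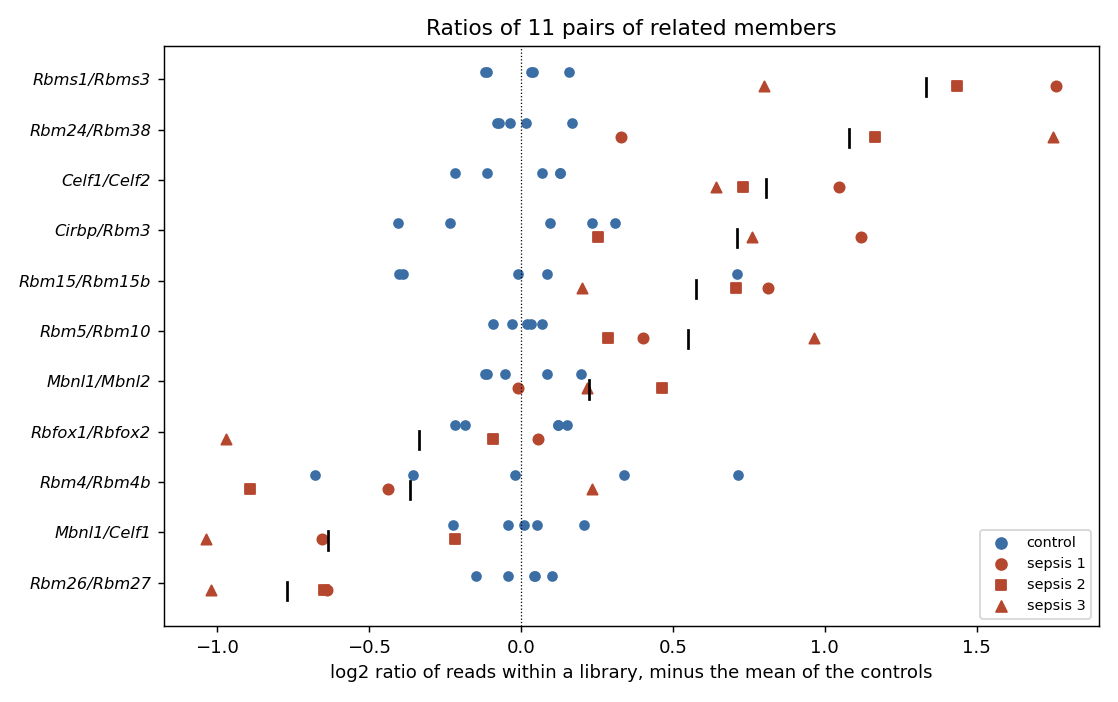
Log2 ratio of reads of 2 related members within each library, minus the mean of the controls, for 11 pairs; blue circles are the 5 controls, red symbols the 3 septic libraries and the short black line the septic mean. In the Rbms1/Rbms3, Rbm24/Rbm38, Celf1/Celf2, Rbm5/Rbm10 and Rbm26/Rbm27 rows no red symbol lies within the blue ones.

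The 3 septic libraries did not rank alike across roles. Among the 14 spliceosome members the third library was the highest in 12 and the second the lowest in 11. Among the 9 muscle splicing regulators the third was the lowest in 7, Rbm24, Rbm38, Rbfox1, Mbnl1, Mbnl2, Celf1 and Celf2, and the highest in 1, Rbfox2. The library that was highest for most spliceosome members was thus the lowest for most muscle exon regulators. Over all 43 members the third library was the highest in 24 and the lowest in 14, and the second was the lowest in 20. The third library had the lowest mitochondrial share (12.6%), and its summed fibre transcripts, 113100 CPM, lay between those of the first, 123200, and the second, 95670. The satellite cell markers summed to 137, 118 and 216 CPM in the 3 septic libraries against 62.1 to 106 in controls, and they were mixed. Of 7 markers 5 were tested: Vcam1 (log2 fold change 3.25) and Sdc4 (1.58) rose, and Myod1 (-1.56) fell. Pax7 and Myf5 had too few reads to be tested. The part of the mitochondrial share, fibre transcripts and satellite cell markers in these orders was not tested. The coefficient of variation had a median of 11.8% in controls and 17.2% in sepsis, and was larger in sepsis for 24 of 43 members.

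**Figure D5:**
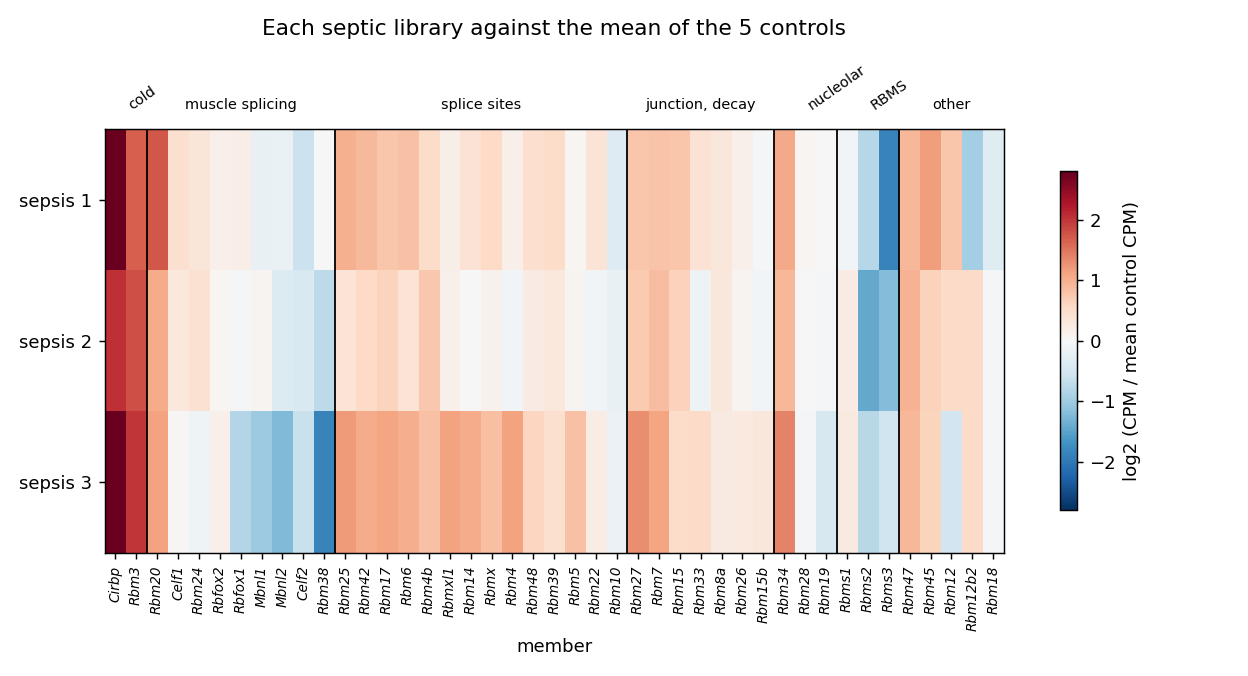
Colour scale of log2 CPM in each septic library relative to the mean of the 5 controls (red higher, blue lower), with 1 column per tested member grouped by role and 1 row per septic library. Cirbp and Rbm3 are red in all 3 rows, while Rbm38, Rbfox1, Mbnl1 and Mbnl2 are bluest in the third.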

How the data were processed

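Input was the table of raw counts that the authors deposited, with 1 unpooled column per library, per the file headers. Per the labels' protocols, 25 ng of total RNA from spin columns entered QuantSeq 3′ libraries, so counts were not divided by length. The build was GRCm39, per the submitters' processing notes. Not given in the sources used here were the aligner, counter, strand setting and annotation. The reference here was GRCm38 and served for names (59 of 59 members matched) and RefSeq promoters.

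In R 4.3.3, edgeR 4.0.16 kept genes with a minimum count of 10 and total of 15, and scaled by TMM. It ran the robust quasi-likelihood test of sepsis against control on 8 libraries with no covariate. On simulated counts with 200 changed genes, fewer than were called here, the test found 8.96% of 1.5-fold, 52.2% of 2-fold and 92.4% of 4-fold changes. The simulation called 108 genes, beside 4943 in these data, so its adjustment was stricter and its rates do not carry over. A member that did not pass is still not shown to be unchanged. Benjamini-Hochberg adjustment covered all 9810 genes, at a threshold of 0.05. The SE is the log2 fold change over the square root of F, and is not an edgeR output. Ratios used log2 of counts plus 0.5. The members, roles and gene lists were chosen with earlier results of these data known. Values per library are given for the 14 largest changes past the threshold and 15 chosen members, and list genes are up to 3 with the smallest p. Some list genes are not reported here by name. DESeq2 1.42.0, other scalings, no filter, a replicate block and leaving out each library were alternatives. The labels do not say what replicate numbers stand for, so the numbers were not taken as pairs. Same-numbered control and septic libraries deviated with correlations of -0.086, -0.014 and -0.020, and unlike-numbered ones with -0.087 to 0.11. With 3 libraries on each side these values cannot show or exclude pairing.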

Additional observations from a re-analysis of the deposited data

How the results depend on the processing

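The calls of 11 members that rose (Cirbp, Rbm3, Rbm20, Rbm6, Rbm7, Rbm17, Rbm25, Rbm27, Rbm34, Rbm39 and Rbm42) and of Rbms3 held under all 15 alternatives. RLE factors kept all 18 calls. Upper-quartile factors and no filter lost Rbm47 and Rbm48, and DESeq2 also lost Rbms2. Without a filter the median of the junction and decay group was 0.50 over 8 genes, and DESeq2 put that of the muscle regulators at -0.0054 over 10. Library totals gave 4256 genes higher and 1387 lower, and 30 members higher and 1 lower, and turned Mbnl1 to 0.12, Rbfox1 to 0.26, Rbm19 to 0.26, Rbm18 to 0.29 and Rbm10 to 0.18. Upper-quartile factors turned Rbm28 to -0.040. Leaving out 1 library gave 11 to 17 members higher and 2 to 5 lower. Among members that did not pass it gave ranges across 0: Rbm15b -0.077 to 0.21, Rbm19 -0.27 to 0.023, Rbm28 -0.049 to 0.065, Rbm12b2 -0.083 to 0.54 and Rbfox1 -0.39 to 0.082. The cause of these shifts was not tested.

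Ratio differences without 1 library ran from 0.69 to 0.89 for Celf1/Celf2, 0.75 to 1.46 for Rbm24/Rbm38, 0.34 to 0.68 for Rbm5/Rbm10, -0.83 to -0.64 for Rbm26/Rbm27, 1.12 to 1.598 for Rbms1/Rbms3, 0.51 to 0.94 for Cirbp/Rbm3 and 0.46 to 0.76 for Rbm15/Rbm15b. The last 2 passed without control 1. A replicate block on the 6 libraries with shared numbers gave 1788 genes higher and 1771 lower, 11 members higher and 2 lower, and Rbm28 at -0.030. Not called with the block were Rbm15 (adjusted p = 0.169), Mbnl2 (0.0618), Rbms2 (0.127), Rbm47, Rbm48 and, among exosome genes, Exosc5 (0.0643) and Zfc3h1. With it 0 exosome genes were higher and 2 lower (3 and 1 without the block on these libraries), and 4 and 0 of the other splicing regulators (5 and 2). The same 6 libraries without the block, an alternative chosen after seeing the data, gave 2010 and 1894 genes, 11 members higher and 2 lower, Rbm15b at -0.0070 and Rbm28 at -0.038. Sign flips within blocked pairs, with 0.25 as the smallest possible p, gave 1.06 for Rbm24/Rbm38, 0.70 for Celf1/Celf2, 0.53 for Rbm5/Rbm10, -0.75 for Rbm26/Rbm27 and 1.25 for Rbms1/Rbms3. Depth limits the 16 untested members and those with few reads, such as Rbm12b2, which had 63 in all, and Rbm47.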
